A study of Mus musculus with 16 samples.

Results

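The 10 genes described here belong to the Notch pathway: the 4 receptors Notch1, Notch2, Notch3 and Notch4, the ligands Dll1, Dll4, Jag1 and Jag2, and the target genes Hes1 and Hey1. They were chosen by name, as 10 of the 22180 genes that the array annotation names by 1 symbol, and each was read from the probe sets that carry its symbol alone. This gave 11 of the 41345 probe sets, since Dll1 had 2 and every other gene had 1. All 10 genes passed the filter on dim genes, which kept 18095 genes for testing.

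Cells from the small intestine of C57Bl/6 mice aged 8 to 10 weeks, all labelled male, were profiled on 16 microarrays, giving 14 biological samples of 9 animals in 5 groups. Wildtype crypt epithelium was grown as organoids in Matrigel, either alone (n = 2, animals P28 and P30) or for 24 h beneath an insert with 0.4 µm pores that carried wildtype intestinal myofibroblasts (n = 2, the same animals). Wildtype myofibroblasts, which are contractile stromal cells, were kept alone (n = 3, animals Pl_I, Pl_II and Pl_III) and with organoids (n = 3, the same animals). Adenoma cells came from 4 mice of the genotype Apc+/1638N (P21, P23, P34 and P36, on 6 arrays, with the repeat arrays of P21 and P34 averaged), which carry a mutant copy of the Wnt pathway inhibitor Apc. The sources used here do not give how the adenoma cells were kept before RNA isolation, or which fibroblasts shared a well with which organoids. A label on the adenoma arrays gives n=3 where the titles name 4 animals, and the titles were followed. The titles of P21 and P23 carry the tag T2 and those of P34 and P36 do not, and the tag is not explained. Nothing in the labels says that cultures were repeated within an animal, so n counts animals.

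Array medians lay between 3.48 and 3.58 on the log2 scale. The labelled cell types carried their markers: 12 epithelial genes averaged 10.93 in epithelium alone, 11.17 in co-culture, 9.54 in adenoma, and 3.49 and 3.37 in the fibroblast groups, while 13 fibroblast genes averaged 3.31 to 3.52 in the epithelial and adenoma groups and 10.43 and 10.44 in fibroblasts. The fibroblast cultures also held markers of immune cells, with 11 genes averaging 8.27 and 8.31 there against 3.94 to 3.99 elsewhere. Endothelial markers, which matter here because endothelium uses Dll4 and Notch4, averaged 3.04 to 3.62 in all groups. Against their label, both cultures of P28 and both cultures of Pl_III had high Xist (7.57 to 8.29) and low Eif2s3y, a gene of the Y chromosome (2.53 to 3.20). In all other samples Xist was at most 2.81 and Eif2s3y at least 7.37. The array titled as the monoculture of Pl_III names Pl_II in another label, and the title was followed. Its Xist and Eif2s3y, 8.25 and 2.53, lay near those of the Pl_III co-culture, 8.29 and 3.20, and far from those of the Pl_II co-culture, 1.87 and 8.08. Results of the 10 genes that rest on P28 or Pl_III are given with and without them. Those of all other genes are given only with them.

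Notch signalling passes between touching cells. A ligand of the Delta or Jagged family on a cell binds a receptor on its neighbour, the receptor is cut by ADAM proteases and gamma-secretase, and its freed intracellular part joins the DNA-binding protein Rbpj to switch on repressors of the Hes and Hey families. In the intestinal crypt Dll1 and Dll4 are displayed by secretory cells, Notch1 and Notch2 are carried by stem and progenitor cells, and Hes1 holds down Atoh1, the factor that commits a cell to the secretory fate. Jag1 and Notch3 are best known from the vessel wall, where pericytes and smooth muscle use them.

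The promoters of the 5 genes called in adenoma against epithelium alone are shown first: Dll1 and Dll4, which were lower there, and Notch1, Notch2 and Jag2, which were higher. Each is the 250 bases before the RefSeq gene start in the mouse build GRCm38.p6, printed 5′ to 3′ on the strand of the gene. The windows are chr17:15376933-15377182 (minus strand) for the more upstream start of Dll1, chr2:119325534-119325783 (plus strand) for Dll4, chr2:26503823-26504072 (minus strand) for Notch1, chr3:98013288-98013537 (plus strand) for Notch2 and chr12:112929496-112929745 (minus strand) for Jag2. Capitals mark the letters CACGNG or its reverse complement CNCGTG, the form of site that Hes and Hey repressors bind. They include the palindrome CACGTG, which other basic helix-loop-helix factors bind.
Dll1: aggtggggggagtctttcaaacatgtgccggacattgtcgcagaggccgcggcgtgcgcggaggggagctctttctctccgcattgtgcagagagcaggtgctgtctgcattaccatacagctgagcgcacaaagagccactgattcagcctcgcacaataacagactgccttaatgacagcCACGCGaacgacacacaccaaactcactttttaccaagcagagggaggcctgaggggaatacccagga
Dll4: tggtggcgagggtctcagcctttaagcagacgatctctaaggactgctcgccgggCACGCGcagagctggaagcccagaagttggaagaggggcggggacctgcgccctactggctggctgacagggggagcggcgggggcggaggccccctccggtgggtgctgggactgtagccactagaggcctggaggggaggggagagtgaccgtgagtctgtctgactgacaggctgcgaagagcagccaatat
Notch1: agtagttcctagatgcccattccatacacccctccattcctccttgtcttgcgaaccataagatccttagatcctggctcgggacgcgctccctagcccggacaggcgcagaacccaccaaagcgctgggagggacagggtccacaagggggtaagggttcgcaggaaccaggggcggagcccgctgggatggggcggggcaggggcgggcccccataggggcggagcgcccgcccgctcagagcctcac
Notch2: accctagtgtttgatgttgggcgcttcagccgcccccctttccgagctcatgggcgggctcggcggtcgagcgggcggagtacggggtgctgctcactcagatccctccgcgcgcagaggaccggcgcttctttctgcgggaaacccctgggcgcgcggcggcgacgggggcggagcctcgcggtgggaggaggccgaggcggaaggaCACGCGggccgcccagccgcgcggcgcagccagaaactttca
Jag2: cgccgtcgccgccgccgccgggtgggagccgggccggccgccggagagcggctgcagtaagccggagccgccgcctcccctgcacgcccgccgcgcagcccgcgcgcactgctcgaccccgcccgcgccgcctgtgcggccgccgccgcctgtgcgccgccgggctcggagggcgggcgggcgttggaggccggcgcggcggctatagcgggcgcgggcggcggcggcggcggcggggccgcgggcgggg

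RefSeq windows were matched by symbol for 8 of the 10 genes, with 9 windows in all because Dll1 has 2 starts. CACGNG was found in 23.5% of the 32851 windows of this length, searched on both strands. It was present in the windows of Dll1, Dll4 and Notch2 printed above, in the other window of Dll1 and in those of Notch3 and Jag1, and the letters were not in the windows of Jag2, Notch1 or Notch4. Its first base lay at -68 in the printed Dll1 window, -195 in that of Dll4 and -42 in that of Notch2, where -1 is the base before the start. TGGGAA, the core of the Rbpj site (reverse complement TTCCCA), was in 21.6% of all windows and in 0 of the 9. A match describes the letters of the window and says nothing of binding.

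The levels of the 10 genes by sample fell into 3 patterns. Notch2, Notch4 and Hey1 were higher in every fibroblast sample than in any other, and Notch3 and Jag1 had their highest means in fibroblasts with some overlap. Dll1 and Dll4 had their highest means in epithelium alone. Notch1, Jag2 and Hes1 had theirs in adenoma. Levels below are log2 values of a probe set and can be compared between samples, not between genes.

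**Figure D1:**
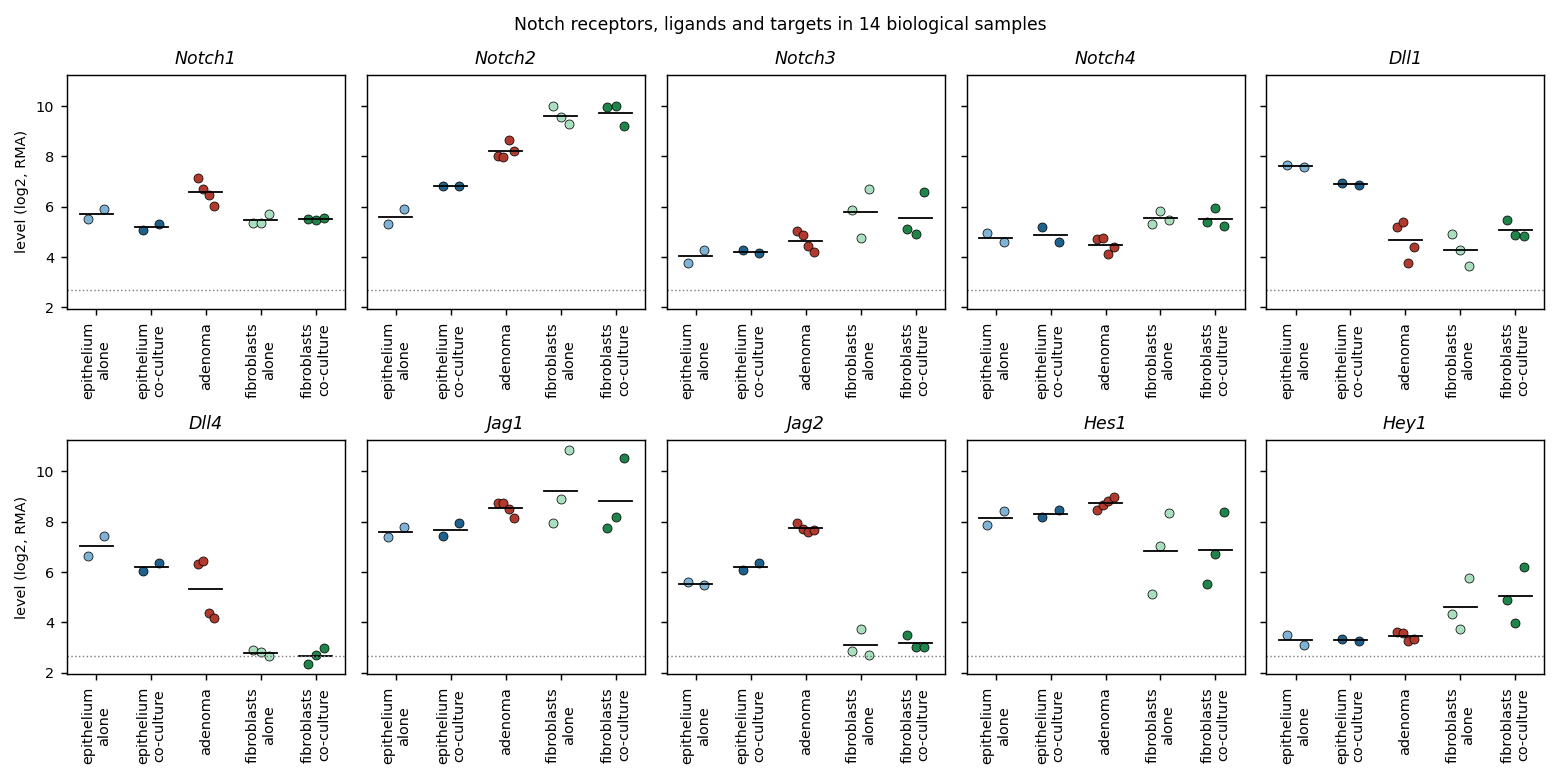
Log2 level of each of the 10 genes (vertical axis) in the 14 biological samples, by group (horizontal axis); each point is an animal, the bar is the group mean and the dotted line is the dim level of 2.67. Notch2 runs from a mean of 5.60 in epithelium alone to 9.73 in co-cultured fibroblasts, Jag2 peaks in adenoma at 7.73, and Dll4 lies near the dim line in all fibroblast samples.

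Among the receptors, Notch2 (probe set 17400813) gave a graded order. It measured 5.30 and 5.90 in epithelium alone (P28, P30), 6.84 and 6.81 in co-culture, and 8.02, 7.98, 8.64 and 8.20 in adenoma (P21, P23, P34, P36). In fibroblasts it measured 10.00, 9.56 and 9.29 alone and 9.98, 10.00 and 9.20 in co-culture (Pl_I, Pl_II, Pl_III). The samples of epithelium alone, co-cultured epithelium, adenoma and fibroblasts did not overlap with one another, and only the fibroblast cultures overlapped. The step from epithelium alone to co-culture was not called (limma, adjusted p = 0.0630). How many of all tested genes kept such an order was not counted. Notch1 (17383052), the receptor of crypt progenitors, measured 5.52 and 5.93 in epithelium alone, 5.09 and 5.30 in co-culture, and 7.15, 6.71, 6.46 and 6.04 in adenoma. All 4 adenoma animals lay above every epithelial sample, and the fibroblast samples lay between 5.34 and 5.71. Notch3 (17343299) ranged from 3.78 to 5.03 over the epithelial and adenoma samples and from 4.76 to 6.71 in fibroblasts. Notch4 (17336559), otherwise known from endothelium, ranged from 4.11 to 5.19 and from 5.24 to 5.94, so that every fibroblast sample lay above every other sample.

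Of the ligands, Dll1 (17341179) measured 7.68 and 7.57 in epithelium alone, 6.93 and 6.86 in co-culture, and 5.19, 5.41, 3.76 and 4.39 in adenoma. Its fibroblast samples lay between 3.65 and 5.47 and overlapped adenoma. The dimmer probe set of Dll1 (17333549) kept the order of the epithelial groups and adenoma, with means of 5.42, 4.96 and 3.32. Dll4 (17374792) measured 6.64 and 7.44 in epithelium alone, 6.05 and 6.36 in co-culture, and 6.32, 6.44, 4.39 and 4.16 in adenoma. The adenoma animals fell into pairs, P21 and P23 at the level of co-cultured epithelium and P34 and P36 well below it, while fibroblasts lay between 2.35 and 2.97, at the dim level. A further probe set that names Dll4 together with Gm14207 was left out; its mean was 4.43 in epithelium alone, 3.73 in adenoma and 3.32 in fibroblasts alone.

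Jag2 (17284253) measured 5.60 and 5.47 in epithelium alone, 6.08 and 6.36 in co-culture, and 7.95, 7.72, 7.60 and 7.66 in adenoma, in that order without overlap. For Jag2, too, the step to co-culture was not called (limma, adjusted p = 0.268). The fibroblast samples of Jag2 lay between 2.69 and 3.75. Jag1 (17392151) measured 7.40 and 7.77 in epithelium alone, 7.43 and 7.93 in co-culture and 8.75, 8.75, 8.51 and 8.16 in adenoma. Its fibroblast values spread more widely than those of any other gene of the 10 but Hes1, from 7.76 to 10.83. The adenoma animals lay above all epithelial samples and within the range of the fibroblasts.

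Of the targets, Hes1 (17324623) measured 7.87 and 8.43 in epithelium alone, 8.18 and 8.46 in co-culture, and 8.47, 8.66, 8.82 and 9.0 in adenoma. The adenoma values began just above the highest epithelial one. Fibroblast values of Hes1 ran from 5.13 to 8.37. Hey1 (17404011) lay between 3.08 and 3.60 in all epithelial and adenoma samples and between 3.72 and 6.21 in fibroblasts, with no overlap between these sets.

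Adenoma cells had more Notch1, Notch2 and Jag2 and less Dll1 and Dll4 than epithelium grown alone. Of the 10 genes, 3 were higher and 2 lower at an adjusted p under 0.05 (limma, adjusted over all genes tested), where 22.5% of all tested genes were higher, 18.5% lower and 41.0% called either way. In bulk samples fewer cells of a type and less RNA per cell cannot be told apart. Notch2 rose by 2.61 ± 0.28 (log2 difference ± SE, n = 4 and 2; limma, adjusted p = 1.43e-05), which is 6.11-fold. Jag2 rose by 2.20 ± 0.26 (adjusted p = 2.74e-05), or 4.60-fold, and Notch1 by 0.87 ± 0.25 (adjusted p = 0.0145), or 1.82-fold. Dll1 fell by 2.94 ± 0.43 (adjusted p = 1.52e-04), a 7.69-fold lower level, and its dimmer probe set fell by 2.11 (adjusted p = 5.55e-05). Dll4 fell by 1.71 ± 0.58 (adjusted p = 0.0314), or 3.28-fold.

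Groups did not overlap for 7 of the 10 genes, against 56.4% of all tested genes. The remaining members of that 7 were Jag1, at 0.96 ± 0.77 (adjusted p = 0.370), and Hes1, at 0.59 ± 0.79 (adjusted p = 0.609). Their 95% intervals, -0.73 to 2.64 and -1.14 to 2.31, come from a fit that shares a single spread over all 5 groups. The SD of both genes was largest in fibroblasts, 1.49 for Jag1 in co-culture and 1.62 for Hes1 alone. With only the adenoma and epithelium samples fitted, Jag1 passed (adjusted p = 0.0123) and Hes1 did not (adjusted p = 0.0729). Notch3, Notch4 and Hey1 differed by 0.61, -0.28 and 0.17 and did not pass. The median difference over the 10 genes was 0.60, against -0.03 over all tested genes.

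Against co-cultured epithelium, a comparison that shares the adenoma samples, Notch1, Notch2 and Jag2 were again higher and Dll1 was lower. These were 3 genes higher and 1 lower, where 19.0% and 14.3% of all tested genes were called in those directions, 33.3% in all. Notch1 rose by 1.39 ± 0.25 (limma, adjusted p = 0.00106), Notch2 by 1.39 ± 0.28 (adjusted p = 0.00246) and Jag2 by 1.52 ± 0.26 (adjusted p = 7.69e-04). Dll1 fell by 2.21 ± 0.43 (adjusted p = 0.00186). Dll4 differed by -0.88 ± 0.58 (adjusted p = 0.289) and its groups overlapped, and Jag1, Hes1, Notch3, Notch4 and Hey1 did not pass either. With only the compared groups fitted, Jag1 passed (0.86, adjusted p = 0.029). Groups did not overlap for 6 of the 10 genes, against 51.2% of all tested genes.

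**Figure D2:**
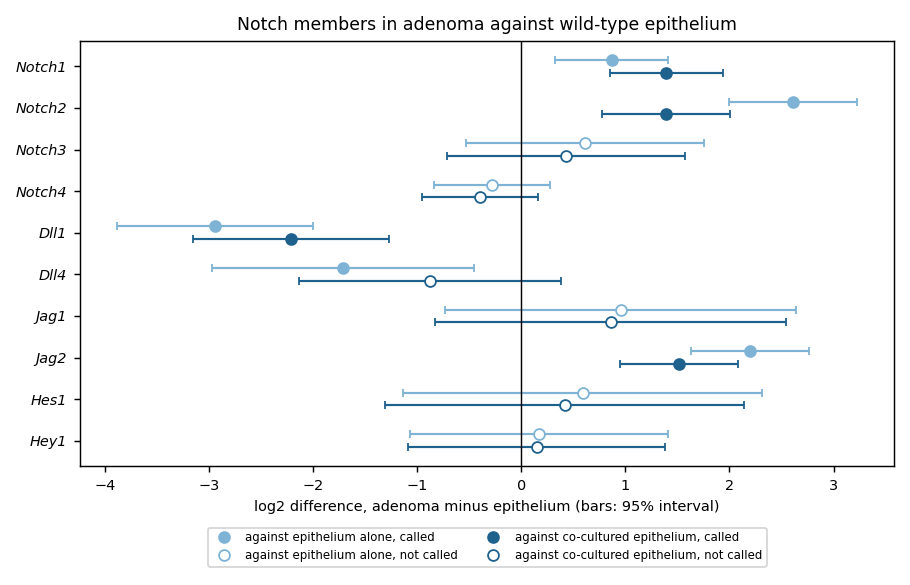
Log2 difference of adenoma from epithelium (horizontal axis) for each of the 10 genes (vertical axis), against epithelium alone (light blue) and against co-cultured epithelium (dark blue); bars are 95% intervals from limma, and filled points passed an adjusted p of 0.05. Dll1 lies wholly below 0 and Notch1, Notch2 and Jag2 wholly above it in both comparisons, while Dll4 is called only against epithelium alone.

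Without both cultures of P28 and Pl_III, which left 1 animal of epithelium, 3 genes were called against epithelium alone: Notch2 at 2.31 (adjusted p = 5.71e-04), Jag2 at 2.27 (adjusted p = 0.00156) and Dll1 at -2.89 (adjusted p = 0.00763). Notch1 at 0.66 (adjusted p = 0.202) and Dll4 at -2.12 (adjusted p = 0.106) were no longer called. Leaving out single samples, Notch1 lost its call against epithelium alone without P28 (0.66), and Dll4 lost its without P28, P30, P34 or P36 (-2.12, -1.31, -1.40 and -1.33). With only the compared groups fitted, neither Notch1 (adjusted p = 0.0662) nor Dll4 (adjusted p = 0.119) was called, and without P21 and P23 Notch1 was not called either (0.52). The 4 calls against co-cultured epithelium held without P28 and Pl_III, with adjusted p-values from 0.00997 to 0.0362.

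The adenoma animals differed among themselves, and Dll4 and Dll1 separated them most. The mean of Dll4 was 6.38 in P21 and P23 and 4.27 in P34 and P36, and that of Dll1 was 5.30 and 4.07. Notch1 (6.93 and 6.25), Notch3 (4.96 and 4.32), Notch4 (4.73 and 4.26), Jag1 (8.75 and 8.34), Hey1 (3.60 and 3.31) and Jag2 (7.83 and 7.63) were likewise higher in P21 and P23. Notch2 (8.00 and 8.42) and Hes1 (8.56 and 8.91) were higher in P34 and P36. All 10 genes kept the pairs of animals apart, as did 51.2% of all tested genes, and with 2 animals on each side no test was made. Without P34 and P36, Dll4 differed from epithelium alone by -0.66 (adjusted p = 0.0800) and from co-cultured epithelium by 0.17 (adjusted p = 0.715). Without P21 and P23 it differed by -2.77 (adjusted p = 2.57e-05) and -1.93 (adjusted p = 4.68e-04).

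Of 10 secretory fate factors 5 were higher in both P21 and P23 than in P34 and P36, and of 12 secretory products 9 were, against 25.2% of all tested genes. In either list 0 ran the other way, against 26% of all. The split was not limited to secretory genes. Of 8 genes of Lgr5 stem cells 6 were higher in P21 and P23 and 0 lower, and of 12 epithelial genes 8 were higher and 2 lower. Atoh1, the secretory fate factor that Hes1 represses, measured 8.75 and 8.89 in epithelium alone, 8.69 and 8.74 in co-culture, 7.89 and 7.85 in P21 and P23, and 3.29 and 3.56 in P34 and P36. Lyz1, the lysozyme of Paneth cells, measured 11.75 and 12.20 in P21 and P23, against 11.41 to 11.84 in epithelium, and 3.20 and 2.72 in P34 and P36. Muc2, the mucin of goblet cells, measured 8.13 and 9.38 against 3.53 and 3.92, below the epithelial range of 11.57 to 12.00 in every animal. Chga, a granin of enteroendocrine cells, did not keep the pairs apart: it lay between 3.37 and 3.96 in all 4 adenoma animals and between 8.18 and 9.16 in epithelium. Chgb and the tuft cell gene Trpm5 did not keep them apart either. Atoh1 and Lyz1 were singled out after their values were seen. The part of these cells in the lower Dll1 and Dll4 was not tested.

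**Figure D3:**
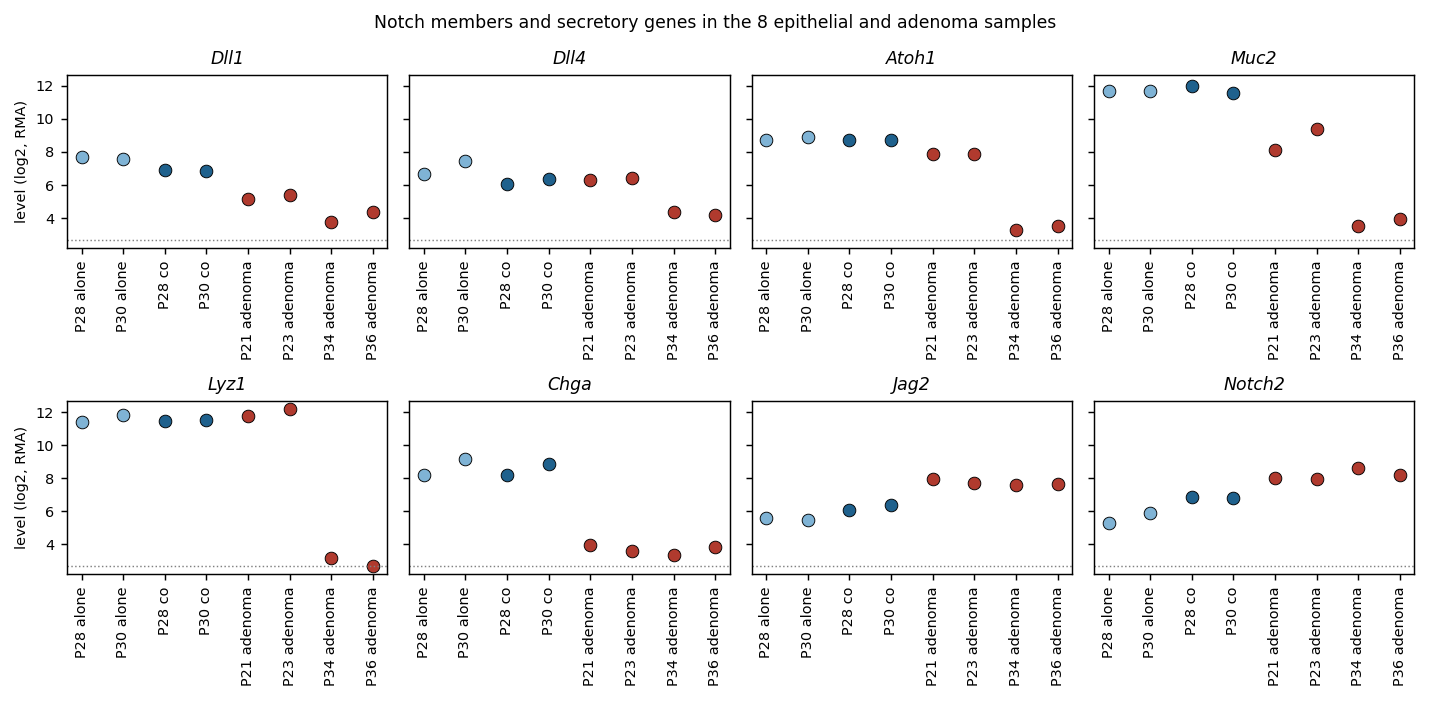
Log2 level (vertical axis) of the Notch genes Dll1, Dll4, Jag2 and Notch2 and of the secretory genes Atoh1, Muc2, Lyz1 and Chga in the 8 epithelial and adenoma samples (horizontal axis), with epithelium alone in light blue, co-culture in dark blue and adenoma in red; the dotted line is the dim level. Dll4 and Lyz1 are lower in P34 and P36 than in all other samples, Dll1, Atoh1 and Muc2 are lower in all 4 adenoma animals than in epithelium and lowest in P34 and P36, Chga is low in all 4, and Jag2 and Notch2 are higher in all 4 than in any epithelial sample.

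Organoids grown with myofibroblasts had a higher Notch2 value than organoids grown alone, but 0 of the 10 genes passed the test over all genes. That test did not pair the samples of an animal. In this comparison 4.03% of all tested genes were called, 2.71% higher and 1.32% lower. At an unadjusted p under 0.05 there were 2 of the 10 genes and 3065 of all genes. Notch2 differed by 1.22 ± 0.33 (n = 2 and 2; limma, adjusted p = 0.0630), by 1.54 in P28 and 0.91 in P30. With the animal as a fixed replicate block Notch2 was called (adjusted p = 0.0165), where 10.6% of all tested genes were. Jag2 differed by 0.68 ± 0.30 (adjusted p = 0.268), Dll1 by -0.73 ± 0.50 (adjusted p = 0.530), Dll4 by -0.83 ± 0.66 (adjusted p = 0.605) and Notch1 by -0.53 ± 0.29 (adjusted p = 0.404). These 5 genes had groups that did not overlap, against 52.3% of all tested genes. Hes1 differed by 0.17 ± 0.91 (95% interval -1.82 to 2.16) and Hey1 by 0.02 ± 0.65 (-1.40 to 1.45), and their intervals span changes of either sign. That fit shares 1 spread over all 5 groups. For Hes1 the SD was 0.40 and 0.20 in epithelium alone and in co-culture, against 1.62 and 1.42 in fibroblasts. For Hey1 it was 0.28 and 0.04 against 1.06 and 1.11. Within P28 and P30, Hes1 differed by 0.31 and 0.03 and Hey1 by -0.15 and 0.19. Without P28, and with Pl_III also left out, Notch2 differed by 0.91 (adjusted p = 0.354).

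In myofibroblasts grown with organoids 0 of the 10 genes passed by limma, and 0 had an unadjusted p under 0.05, where 513 of all genes did and 0.00553% were called. Dll1 came nearest, at 0.77 ± 0.41 (n = 3 and 3; adjusted p = 1.00), with 0.55, 0.58 and 1.19 in Pl_I, Pl_II and Pl_III, but its dimmer probe set differed by -0.03. Jag1 gave -0.18, -0.71 and -0.31 and Hey1 gave 0.56, 0.27 and 0.43 in Pl_I, Pl_II and Pl_III, each with 1 sign in all 3 animals. How many of all tested genes kept 1 sign was not counted. Groups overlapped for all 10 genes, against 6.98% of all tested genes whose groups did not. Notch2 differed by 0.11 ± 0.27, with a 95% interval from -0.47 to 0.69.

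The responses of epithelium and fibroblasts were set against each other in 1 test. None of the 10 genes passed by limma, 2 had an unadjusted p under 0.05, as did 2293 of all genes, and 1.11% of all tested genes were called. The response of Notch2 was 1.11 ± 0.42 higher in epithelium (adjusted p = 0.281) and that of Dll1 differed by -1.5 ± 0.64 (adjusted p = 0.352). With the fixed replicate block the Dll1 difference was called (adjusted p = 0.0224), where 4.76% of all tested genes were, though its dimmer probe set gave -0.43 (adjusted p = 0.754 without the block). With the animal as a random block, an alternative chosen after the data were seen, Notch2 was called in place of Dll1 (adjusted p = 0.0467), where 7.64% of all tested genes were.

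**Figure D4:**
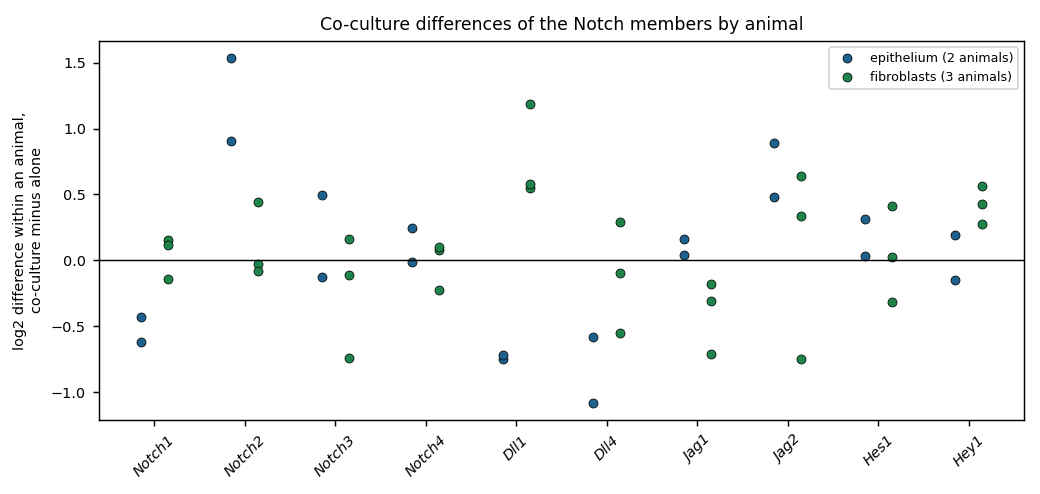
Log2 difference of co-culture from culture alone within each animal (vertical axis) for each of the 10 genes (horizontal axis), with 2 epithelial animals in blue and 3 fibroblast animals in green. The blue points of Notch2, Jag2, Jag1 and Hes1 lie above 0 and those of Notch1, Dll1 and Dll4 below it. The green points of Dll1 and Hey1 lie above 0 and those of Jag1 below it.

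Fibroblasts and epithelium differed in the RNA level of several receptors and ligands, at a share near that of all tested genes. Grown alone, fibroblasts had more Notch2, Notch3 and Notch4 and less Dll1, Dll4 and Jag2: 3 genes were higher and 3 lower, where 26.5% and 24.2% of all tested genes were, 50.7% in all. Notch2 was higher by 4.01 ± 0.30 (n = 3 and 2; limma, adjusted p = 2.7e-07), or 16.2-fold, Notch3 by 1.75 ± 0.55 (adjusted p = 0.0191) and Notch4 by 0.77 ± 0.27 (adjusted p = 0.0325). Dll4 was lower, at -4.24 ± 0.61 (adjusted p = 8.46e-05), as were Dll1, at -3.34 ± 0.45 (adjusted p = 5.55e-05), and Jag2, at -2.43 ± 0.27 (adjusted p = 1.09e-05). Since Dll4 was at the dim level in fibroblasts, its difference may be understated. Jag1, at 1.64 ± 0.81 (adjusted p = 0.115), Hes1, at -1.31 ± 0.83 (adjusted p = 0.215), Hey1, at 1.33 ± 0.60 (adjusted p = 0.0846), and Notch1, at -0.25 ± 0.26 (adjusted p = 0.456), did not pass. Groups did not overlap for 8 of the 10 genes, against 66.4% of all tested genes. Of 11 immune markers 10 were above the dim level in these fibroblasts and also in epithelium alone, Cd3e of T cells being dim in both. Their summed level was 88.7 to 94.0 in fibroblasts against 42.7 to 44.0 in epithelium. Their part in the differences was not tested. Leaving out any 1 sample in turn, Notch4 lost its call without the monoculture of P28, P30 or Pl_II (0.93, 0.60 and 0.62) and Notch3 without that of P28 or Pl_III (1.5 and 1.28).

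In co-culture 2 genes were higher in fibroblasts and 3 lower, where 23.9% and 21.2% of all tested genes were, 45.1% in all. Groups did not overlap for 8 of the 10 genes, against 64.2% of all tested genes. Notch2 was higher by 2.90 ± 0.30 (limma, adjusted p = 5.76e-06) and Hey1 by 1.72 ± 0.60 (adjusted p = 0.0332). Jag2, Dll4 and Dll1 were lower, at -3.04 ± 0.27, -3.53 ± 0.61 and -1.84 ± 0.45 (adjusted p = 1.77e-06, 4.27e-04 and 0.00539). Notch3 at 1.33 ± 0.55 (adjusted p = 0.0688) and Notch4 at 0.63 ± 0.27 (adjusted p = 0.0776) did not pass. Without P28 and Pl_III the calls of Notch3 and Notch4 in cultures grown alone were lost (adjusted p = 0.121 and 0.0603), and in co-culture those of Dll1 (adjusted p = 0.0811) and Hey1 (adjusted p = 0.0508). Without the co-culture of P28, P30, Pl_I or Pl_III alone Hey1 also lost its call, at 1.75, 1.69, 1.79 and 1.14, as it did with only the compared groups fitted (adjusted p = 0.0711). With the animal as a random replicate block, Hey1 was also called in cultures grown alone (adjusted p = 0.0434) and Notch3 in co-culture (adjusted p = 0.0441). Without both cultures of P28 and Pl_III, Hes1 was called lower in fibroblasts in both, at -2.34 (adjusted p = 0.0354) and -2.32 (adjusted p = 0.0411).

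The 3 fibroblast animals differed in Jag1, Hes1, Hey1 and Notch3, and Pl_III stood highest in all 4 genes in both cultures. In Pl_III, Jag1 measured 10.83 alone and 10.52 in co-culture, against 7.94 and 7.76 in Pl_I and 8.91 and 8.20 in Pl_II. Hes1 measured 8.34 and 8.37 in Pl_III, 5.13 and 5.54 in Pl_I and 7.05 and 6.73 in Pl_II. Both genes were thus highest in Pl_III and lowest in Pl_I in each culture, and Pl_III reached the Hes1 level of epithelium. Hey1 measured 5.78 and 6.21 in Pl_III, 4.33 and 4.89 in Pl_I and 3.72 and 3.99 in Pl_II. Notch3 measured 6.71 and 6.59 in Pl_III, 5.86 and 5.12 in Pl_I and 4.76 and 4.92 in Pl_II. For both, Pl_III lay above all other fibroblast samples. Notch1 was also highest there, by 0.22 over the mean of the other animals, while Notch2 was lowest, at 9.29 and 9.20.

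Of 10 other Hes, Hey and feedback targets, 3 (Hes3, Hey2 and Heyl) were higher in both Pl_III samples than in every other fibroblast sample and 1 was lower. Among all tested genes 16.6% were higher in this way and 17.4% were lower. Hes3 lay near the dim level of 2.67 in fibroblasts, with means of 3.15 alone and 2.87 in co-culture. Hey2 measured 6.42 and 6.03 in Pl_III and 2.87 to 3.34 in the other fibroblast samples, and Heyl measured 5.94 in both cultures of Pl_III and 3.58 to 4.19 in the others; both were singled out after their values were seen. Both Pl_III samples lay above all other fibroblast samples for 5 of the 10 genes (Notch1, Notch3, Jag1, Hes1 and Hey1), against 16.6% of all tested genes. By a mean of 1 or more on the log2 scale this held for Notch3, Jag1, Hes1 and Hey1, against 2.38% of all tested genes. Both Pl_III samples lay below all other fibroblast samples for 1 of the 10 genes, Notch2, against 17.4% of all tested genes. Pl_III is 1 of the animals whose sex-linked genes went against the label, and with 1 animal no test was made. Of 12 markers of pericytes and smooth muscle 9 were higher in both Pl_III samples than in every other fibroblast sample. Their mean was 7.45 and 7.29 in Pl_I, 7.88 and 7.80 in Pl_II, and 8.57 and 8.53 in Pl_III, alone and in co-culture. Jag1 and Hes1 had the same order of animals, whereas Notch3 and Hey1 were higher in Pl_I than in Pl_II. All 12 markers were above the dim level in fibroblasts and in adenoma, and 11 were in each epithelial group. Their summed levels were 87.4 to 102.8 in fibroblasts, 47.7 to 52.6 in adenoma and 45.7 to 45.9 in epithelium. Of the 10 immune markers that were tested, 6 were also higher in both Pl_III samples than in every other fibroblast sample, and 1 was lower. Myofibroblasts are contractile themselves, so the pericyte and smooth muscle markers cannot tell such cells from the cultured ones. The part of pericytes, smooth muscle or immune cells in the higher Jag1, Notch3, Hes1 and Hey1 was not tested.

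**Figure D5:**
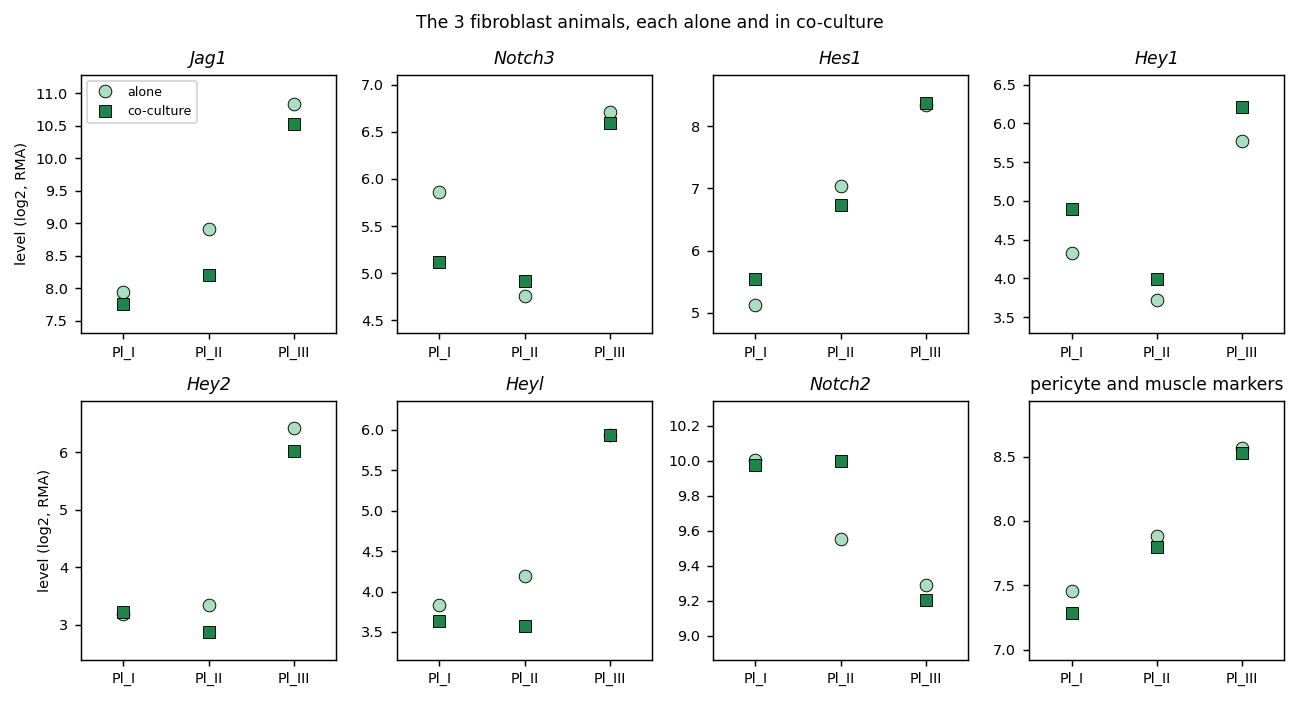
Log2 level (vertical axes, each with its own range) in fibroblasts of animals Pl_I, Pl_II and Pl_III (horizontal axis), alone (light circles) and in co-culture (dark squares), for Notch genes and the mean of 12 pericyte and smooth muscle markers. Jag1, Notch3, Hes1, Hey1, Hey2 and Heyl are highest in Pl_III and Notch2 is lowest there. The cultures of an animal also differ in places, as for Notch3 in Pl_I (5.86 and 5.12), Jag1 in Pl_II (8.91 and 8.20) and Notch2 in Pl_II (9.56 and 10.00).

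The rest of the pathway was read from lists of genes, whose counts against epithelium alone stand beside 22.5% higher and 18.5% lower among all tested genes. Among 10 other Hes, Hey and feedback targets, 0 were higher and 2 lower in adenoma than in epithelium alone. These were Hes2, a repressor of the Hes family, which fell by 2.48 (limma, adjusted p = 6.88e-06) from 5.92 to 3.44, and the clock-linked repressor Bhlhe40, which fell by 0.81 (adjusted p = 0.00583). Nrarp, a feedback inhibitor that Notch switches on, differed by 0.19 (adjusted p = 0.718). Of 7 tested genes of other ligands 0 passed in adenoma by limma, and 0 had an unadjusted p under 0.05.

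Among 8 cleavage genes 2 were higher and 4 lower in adenoma than in epithelium alone. The ADAM proteases Adam17 and Adam10 rose by 0.77 and 0.57, and Ncstn, a gamma-secretase subunit, and Furin, the convertase that matures the receptor, fell by 0.55 and 0.42. Of 11 modifiers 2 were higher and 3 lower. Lfng, the Fringe glycosyltransferase that tunes which ligand a receptor answers, rose by 2.16 (adjusted p = 4.95e-04), whereas Neurl1b, Mib2 and Epn1, which act on ligand endocytosis, fell by 1.66, 1.28 and 0.80. The other gene that rose was Mib1, also a ubiquitin ligase of ligand endocytosis, at 0.54 (adjusted p = 0.00693). Of 12 genes of the transcription complex 3 were higher, the acetyltransferase Kat2a by 2.48, the coactivator Maml2 by 1.55 and Rbpj by 0.70, and 0 were lower.

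Among 10 genes of turnover and inhibition 4 were higher and 3 lower. Nedd4 and Dtx4, both ubiquitin ligases, rose by 1.36 and 1.76, while Numb, an inhibitor that drives receptor endocytosis, fell by 1.66. Nedd4 was also the only gene of the 6 pathway lists beyond the 10 called in co-cultured epithelium, with a rise of 0.52 (limma, adjusted p = 0.0334), where 4.03% of all tested genes were called. In fibroblasts alone against epithelium alone, 26.5% of all tested genes were called higher and 24.2% lower. The lists gave 0 higher and 3 lower of 10 other targets, 3 and 1 of 7 other ligands, and 2 and 1 of 8 cleavage genes. They gave 4 and 4 of 11 modifiers, 4 and 2 of 12 transcription complex genes, and 5 and 2 of 10 turnover genes. Of these, Numbl was higher by 4.12, Rbpj by 2.59, Maml2 by 3.27 and the microfibril proteins Mfap5 and Mfap2 by 5.54 and 3.09. Nrarp was lower, at -3.11, and Neurl1b, at -4.49.

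Of 10 secretory fate factors, a list that includes Atoh1, 1 was higher and 7 lower in adenoma than in epithelium alone. Sox4 rose by 2.62 (limma, adjusted p = 1.56e-05), and Pou2f3, Spdef and Creb3l1 fell by 1.03, 1.13 and 0.88. Of 12 products of secretory cells 0 were higher and 6 lower, among them Chgb at -6.09, Chga at -5.0 and Muc2 at -5.45. Of 8 genes of Lgr5 stem cells, which depend on Notch, 4 were higher and 0 lower: Ascl2 by 4.51, Tnfrsf19 by 3.06, Rnf43 by 2.55 and Prom1 by 1.90. Lgr5 itself differed by 0.55 (adjusted p = 0.098) and Olfm4 by -2.46 (adjusted p = 0.080), both singled out after their values were seen. Against co-cultured epithelium 5 of the 8 stem cell genes were higher and 1 lower, Olfm4 at -2.94 (adjusted p = 0.0473). There 19.0% of all tested genes were higher and 14.3% lower. Prom1 was also called higher in co-cultured epithelium than in epithelium alone, by 1.33 (adjusted p = 0.00435). Its rise in adenoma against co-culture was 0.58. Against epithelium alone, the median difference was -0.93 over the fate factors, -3.53 over the products and 1.23 over the stem cell genes.

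The genes whose levels followed each member most closely were found by distance over the 14 samples after centring each gene. For Notch2 these were Tmem123, Rab23 and Itgav, at distances of 0.90 to 1.30 where the median gene lay at 5.81. For Jag2 they were Map3k21, Proser2 and Grhl2 (1.22 to 1.41, median 7.40), for Dll4 Slc5a9, Arhgef38 and Tox3 (1.47 to 1.75, median 6.78) and for Dll1 Rnf125, Slc25a15 and Adtrp (1.39 to 1.55, median 5.06). Those of Hey1 were Pgf, Eya4 and Rspo2 (0.95 to 1.03, median 3.90), those of Notch3 Tgfbr1, Plcg2 and Hspa2 (1.16 to 1.28, median 3.63) and those of Jag1 Mir23b, Dmd and Dusp4 (1.5 to 1.55, median 4.11). Hes1 had no gene as near, with Jup, Mtus1 and Fzd6 at 1.92 to 2.18 and a median of 4.58. Notch1 (Snora2b, Snhg20 and Zc3h8) and Notch4 (Tmem39a, St6galnac3 and Tmem184b) varied little, so that many genes lay near them, with medians of 2.62 and 2.53. The samples share groups and animals, so nearness describes a common pattern over these 14 samples.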

How the data were processed

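RNA (150 ng per sample) was hybridised to Affymetrix whole-transcript arrays. The deposited values are log2 intensities that the authors summarised with RMA, per the submitters' processing notes, and the sources used here do not give its version. RMA makes the arrays alike in distribution and says nothing of total RNA per cell. The number of arrays limits the precision. Of the 41345 probe sets, 23521 have 1 symbol in the annotation, 1814 have several and 16010 are unnamed here.

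Repeat arrays of an animal were averaged. A gene was read from its probe set of highest mean, and genes were left out where no group mean exceeded 2.67, which is percentile 30 of the means of all probe sets (4085 of 22180). All 18095 remaining genes were fitted with limma 3.58.1 in R 4.3.3, with 1 mean for each of 5 groups and a shared spread (11.7 degrees of freedom in all). P-values were adjusted by Benjamini-Hochberg over all genes tested, and a gene was called at an adjusted p under 0.05. In all, 7 comparisons were made. Promoter windows were searched with Python 3.11.15 and figures drawn with matplotlib 3.10.9. The functions were tested on simulated data.

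The labels give the same animal alone and in co-culture for 5 animals. Deviations from group means correlated within each of them, at 0.33 for P28 and P30 (equal by construction with 2 animals), 0.62 for Pl_I, 0.51 for Pl_II and 0.79 for Pl_III, so the numbers pair the samples. The main fit did not use this pairing, and only the replicate blocks did. Alternatives were the replicate block, other filters, scalings, probe set and array rules, a trended variance prior, fits on the compared groups only, and leaving out samples. The random block and the dimmer Dll1 probe set were chosen after the data were seen. The 10 genes and all gene lists were chosen with earlier results of these data known. Of each other list, up to 4 called genes of smallest p in a comparison were named, and for each of the 10 genes the 3 nearest. Atoh1, Lyz1, Hes3, Hey2 and Heyl, and Nrarp, Mib1, Lgr5 and Olfm4 in adenoma, fall outside this rule and were chosen after their values were seen. Whether samples of an animal are more than 1 culture is not given, so p-values measure the spread between these samples.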

Additional observations from a re-analysis of the deposited data

Results flagged for a closer look

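The co-culture response of Dll1, the difference of co-culture from culture alone, was -1.50 on the log2 scale in epithelium minus fibroblasts, and the animals of the cell types moved in opposite directions: -0.75 and -0.72 in the epithelial animals against 0.55, 0.58 and 1.19 in the fibroblast animals. By limma its adjusted p was 0.352, and 0.0224 with the animal as a fixed replicate block. The dimmer probe set of Dll1 gave -0.43.

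The response of Jag1 differed by 0.50 (limma, adjusted p = 0.930) and also ran in opposite directions, at 0.04 and 0.16 in epithelium against -0.18, -0.71 and -0.31 in fibroblasts. Neither difference passed without a block, and the cause of the opposite signs was not tested. The share of all tested genes with such opposite signs was not counted, so the signs alone set neither gene apart.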

How the results depend on the processing

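Of 1230 recomputed differences of the 10 genes, 1137 kept their sign and their side of the threshold, 25 lost a call, 18 gained one and 50 changed sign. Against epithelium alone, Notch2, Dll1 and Jag2 kept their adenoma calls under all 20 alternatives, Notch1 under 16 and Dll4 under 13, and against co-cultured epithelium Notch1, Notch2, Dll1 and Jag2 kept theirs under all 20. With the animal as a fixed replicate block, 1 gene was called in co-cultured epithelium (Notch2, adjusted p = 0.0165) and 1 in the response difference (Dll1, adjusted p = 0.0224), and no other call changed. The block could not be fitted between different animals. As a random replicate block it also gave 1 gene in each (Notch2, adjusted p = 0.00529 and 0.0467), and it added Hey1 (adjusted p = 0.0434) and Notch3 (adjusted p = 0.0441) to fibroblasts against epithelium, alone and in co-culture. Without P28 and Pl_III, or without the monoculture of P28, 3 genes were called in adenoma against epithelium alone.

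Leaving out 1 sample at a time, calls numbered 3 to 5 in adenoma against epithelium alone, 4 against co-cultured epithelium, 4 to 7 in fibroblasts against epithelium alone, 4 to 6 in co-culture, and 0 in both co-culture comparisons and the response difference. Signs that changed were all of differences that were not called. Without P28 and Pl_III these were Notch3 (-0.13) and Notch4 (-0.0094) in co-cultured epithelium, Notch4 (0.092) and Jag2 (-0.052) in co-cultured fibroblasts, and Notch4 (-0.10) and Hes1 (-0.016) in the response difference. Without P34 and P36, Dll4 against co-cultured epithelium was 0.17, and the dimmer Dll1 probe set gave -0.029 in co-cultured fibroblasts. Over single samples left out, the ranges in co-cultured epithelium were -0.065 to 0.43 for Notch3, -0.18 to 0.42 for Notch4, -0.15 to 0.35 for Jag1, -0.11 to 0.45 for Hes1 and -0.18 to 0.22 for Hey1. In co-cultured fibroblasts they were -0.022 to 0.16 for Notch1, -0.053 to 0.37 for Notch2, -0.76 to 0.24 for Notch3, -0.22 to 0.13 for Notch4, -0.26 to 0.044 for Dll4, -1.25 to 0.41 for Jag1, -0.13 to 0.40 for Jag2, -0.81 to 0.79 for Hes1 and -0.17 to 1.01 for Hey1. In the response difference they were -0.052 to 0.94 for Notch3, -0.16 to 0.43 for Notch4, -0.31 to 1.35 for Jag1, -0.62 to 0.99 for Hes1 and -0.98 to 0.19 for Hey1, and Hey1 in adenoma against epithelium alone ran from -0.030 to 0.37. The causes were not tested. With 2 epithelial animals small changes could not be seen, and Dll4 in fibroblasts lay at the dim level.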
